A study of Drosophila melanogaster with 16 samples.

Results

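The segmentation genes examined here are 10 transcription factor genes that lay out the body segments of the fly embryo. They comprise the gap genes hb, Kr, kni and gt, the pair-rule genes eve, ftz, odd and prd, and the segment polarity genes en and inv. They were taken by symbol, and every annotated isoform of each was taken, which gave 16 isoform entries out of 25406 and 10 genes out of 15182. In the early embryo, gap proteins divide the axis into broad blocks, pair-rule proteins refine these into stripes, and segment polarity proteins then hold the segment borders. After those stages the genes are kept silent in most cells by Polycomb group proteins, whose complexes deposit trimethylation on lysine 27 of histone H3 (H3K27me3) over wide stretches of chromatin. Several of them are used again in the nervous system, where hb and Kr mark successive births of neurons in embryonic neuroblast lineages and eve and en are made in particular sets of neurons.

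Chromatin immunoprecipitation with sequencing (ChIP-seq) was done on nuclei of adult Drosophila heads, captured through a GFP-tagged nuclear envelope protein (unc84-GFP) that a GAL4 driver expressed. Tdc2-GAL4 labels primarily octopaminergic neurons, which release the insect counterpart of noradrenaline, OK107-GAL4 labels primarily Kenyon cells, whose axons form the lobes of the mushroom body, and R57C10-GAL4 labels all mature neurons. All flies were adult and all carried the tagged protein, and the labels name no other allele or treatment. Captured chromatin was cut with micrococcal nuclease and precipitated with antibodies against H3K27me3, H3K4me3, a mark of active promoters, and H3K27ac, a mark of active promoters and enhancers. Tdc2 had 2 libraries for H3K27me3 and 1 for each other mark, OK107 had 1 library for each mark, R57C10 had 2 for each mark, and each line had 1 input, which is chromatin without precipitation. Replicate libraries are called early and late by the 6-digit tag in their column names. Because each line is a population of nuclei, fewer cells with a mark and less of the mark in each cell cannot be told apart.

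H3K27me3 was counted over gene bodies, and H3K4me3 and H3K27ac in promoter windows of 1001 bp centred on the transcript start. Summed over 1 isoform per gene, H3K27me3 libraries held 8535933 and 7774487 counts for Tdc2, against 54752433 for OK107 and 45768385 and 36284676 for R57C10. Promoter totals ran from 6014866 to 46639284 for H3K4me3 and from 7946606 to 17200471 for H3K27ac, with Tdc2 the lowest in both, and inputs held 45638126 to 56092589 counts over bodies. The tag of R57C10 differed from those of Tdc2 and OK107 in every mark and in the input, so line and tag cannot be told apart in comparisons with R57C10. As a check of the labels, the octopaminergic marker list stood above input in H3K27ac for 3 of 4 genes in Tdc2, against 1 of 4 in OK107 and in each R57C10 library, and the Kenyon cell list did so for 11 of 11 genes in OK107, against 7 in Tdc2 and 8 and 9 in R57C10. Of 11 pan-neuronal genes, 8 stood above input in H3K4me3 in Tdc2, 7 in OK107, and 11 and 9 in R57C10. In every library 1 of 10 glial, 2 of 10 photoreceptor and 0 of 10 muscle genes did so. In H3K27ac, 10 of 11 pan-neuronal and 0 of 10 muscle genes stood above input in every library. Glial genes did so for 4 of 10 in Tdc2 and 2 of 10 in each other library. Photoreceptor genes did so for 7 of 10 in Tdc2, 4 in OK107 and 3 in each R57C10 library.

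All 10 segmentation genes were covered by H3K27me3 in adult neurons of every line. Levels are given as the log2 ratio of mark to input, each in CPM (counts scaled to a common library total) with 1 CPM added, which does not depend on gene length. The median ratio of the 10 genes was 1.63 in both Tdc2 libraries, 1.93 in OK107 and 2.40 and 2.57 in the R57C10 libraries, against medians over all genes of -0.33 in both Tdc2 libraries, -0.72 in OK107 and -0.67 and -0.86 in R57C10. Their median lay between percentiles 97.3 and 98.8 of all genes in the 5 libraries. Only 5.13 to 7.70% of all genes had a ratio above 1, and all 10 segmentation genes did so in OK107 and in both R57C10 libraries, with 8 and 9 of them above 1 in the Tdc2 libraries.

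In a model that set each library against the input of its own line, 10 of 10 segmentation genes were higher in H3K27me3 than in input, in a background of 30.7% of 14579 tested genes called higher (32.8% lower and 63.4% in either direction; edgeR quasi-likelihood test, false discovery rate 0.05). The median log2 fold of the 10 was 2.67, against -0.15 over all genes, and the smallest and largest were 1.81 ± 0.13 for prd and 2.93 ± 0.23 for en (SE). With total count scaling the median over all genes moved to -0.77 and that of the 10 genes to 2.07, and relative to all genes it was 2.84 in that scaling and 2.82 in the main one. Here and below, single libraries were assumed to vary like the replicated groups, and the labels do not say whether replicates were separate preparations, so p-values measure the spread between these libraries and that spread may be technical. In the fits against input, the spread also holds differences between lines in the mark over input.

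**Figure D1:**
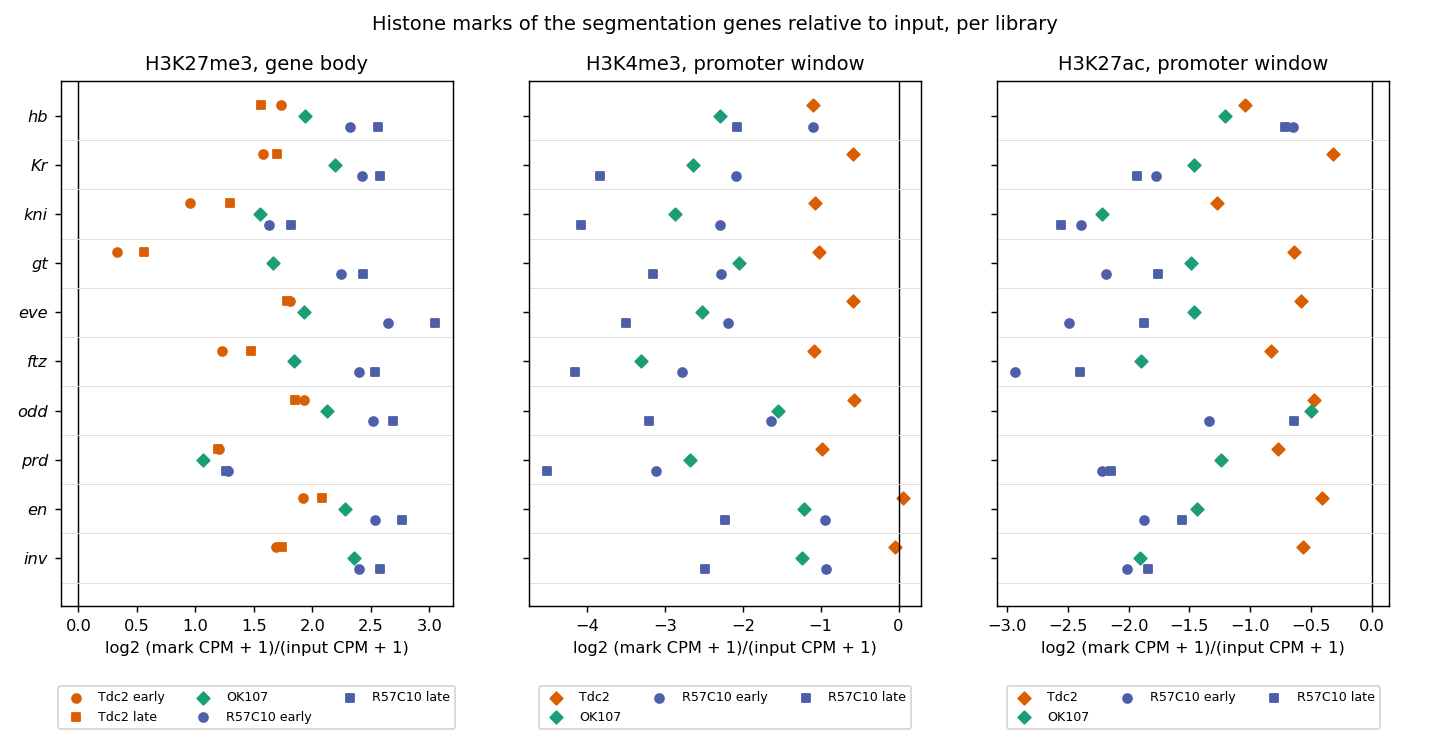
Log2 ratio of mark to input (x axis, CPM with 1 added) for each segmentation gene (rows), with 1 point per library of Tdc2, OK107 and R57C10. Every H3K27me3 point lies to the right of 0, with gt in Tdc2 the lowest at 0.33 and 0.56, while H3K4me3 and H3K27ac points lie to the left of 0 except for en H3K4me3 in Tdc2 at 0.06.

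**Figure D2:**
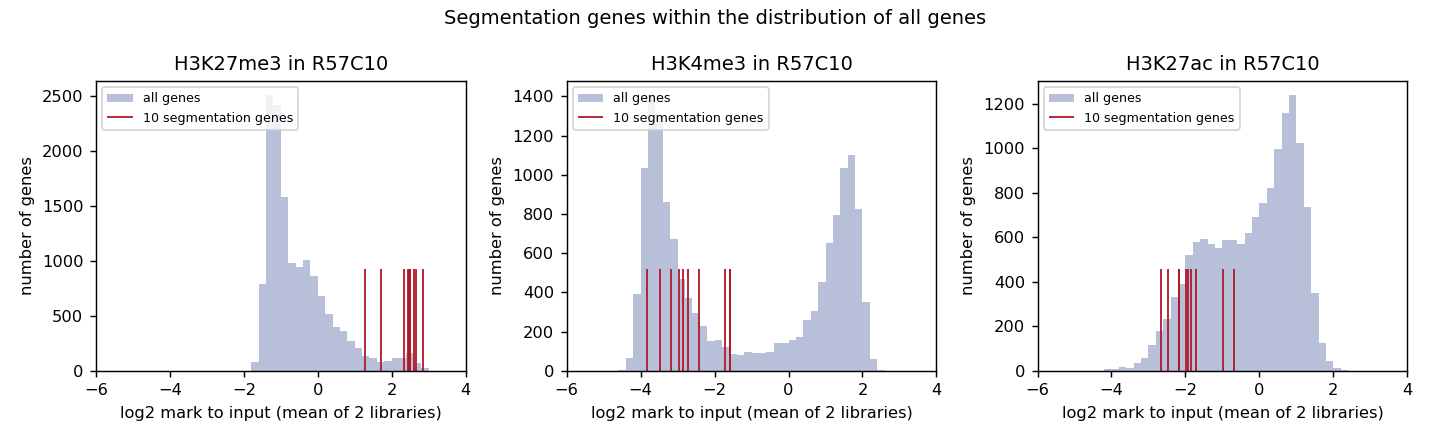
Histograms of all genes by log2 ratio of mark to input in R57C10 (mean of 2 libraries), with the 10 segmentation genes as red lines. They sit in the upper tail for H3K27me3, with a median of 2.48, and in the lower part for H3K27ac, with a median of -1.95. For H3K4me3 they lie nearer the middle of all genes, which is itself below input, and have a median of -2.79.

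Among the gap genes, hb (CG9786; isoform hb-RB at 3R, 4517038 to 4523540, minus strand, dm3 assembly) encodes a zinc finger repressor that patterns the anterior embryo. Its H3K27me3 ratio was 1.73 and 1.56 in Tdc2, 1.94 in OK107, and 2.32 and 2.56 in R57C10. Kr (CG3340; 2R, 21114138 to 21117057, plus strand), a zinc finger repressor of the central embryo, had ratios of 1.58 and 1.69 in Tdc2, 2.19 in OK107, and 2.42 and 2.58 in R57C10. For both genes the Tdc2 libraries were the lowest and the R57C10 libraries the highest, with no overlap between lines.

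The nuclear receptor family gene kni (CG4717; 3L, 20685430 to 20688463, minus strand) represses gap targets in the abdomen and carried less of the mark, with 0.95 and 1.30 in Tdc2, 1.55 in OK107, and 1.63 and 1.82 in R57C10. The bZIP repressor gene gt (CG7952; X, 2321140 to 2322996, minus strand) had ratios of 0.33 and 0.56 in Tdc2, at percentiles 83.9 and 88.9 of all genes, against 1.66 in OK107 and 2.25 and 2.43 in R57C10. These were the lowest H3K27me3 ratios of the 10 genes in any library.

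The pair-rule genes spanned the widest range in R57C10. The homeobox gene eve (CG2328; 2R, 5866746 to 5868284, plus strand), which sets up odd-numbered parasegments, had the highest ratios of the 10 genes there, 2.65 and 3.05, with 1.81 and 1.78 in Tdc2 and 1.93 in OK107. The homeobox gene ftz (CG2047; 3R, 2690046 to 2691950, plus strand), which acts in the alternate parasegments, had 1.23 and 1.47 in Tdc2, 1.84 in OK107, and 2.40 and 2.53 in R57C10. The zinc finger gene odd (CG3851; 2L, 3604222 to 3606748, minus strand) had 1.93 and 1.85 in Tdc2, 2.12 in OK107, and 2.52 and 2.69 in R57C10.

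The paired box and homeobox gene prd (CG6716; isoform prd-RB at 2L, 12082997 to 12085792, minus strand) was the exception among the pair-rule genes, with ratios within a narrow range. It had 1.20 and 1.20 in Tdc2, 1.07 in OK107, and 1.28 and 1.27 in R57C10, the lowest of the 10 genes in OK107 and R57C10. The segment polarity genes en (CG9015; isoform en-RB at 2R, 7411509 to 7415715, minus strand) and inv (CG17835; isoform inv-RA at 2R, 7361970 to 7394688, plus strand) are neighbouring paralogs that encode homeodomain repressors of the posterior compartment. The ratio of en was 1.92 and 2.08 in Tdc2, 2.28 in OK107, and 2.53 and 2.76 in R57C10, and that of inv was 1.69 and 1.74 in Tdc2, 2.35 in OK107, and 2.40 and 2.58 in R57C10.

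The width of H3K27me3 around each gene start was read from counts in windows of 10 kb that start every 5 kb and cover Tdc2 (both libraries pooled by the authors) and OK107. A domain is the run of adjoining windows around the start with a log2 ratio above 1, a level that 6.52% of all windows passed in Tdc2 and 9.57% in OK107. The domains fell into wide, compact and weak ones. The widest held ftz, at 405 kb in Tdc2 and 365 kb in OK107, and took in the Hox genes pb, Dfd, Scr and Antp in both lines, so ftz shared it with genes of the Antennapedia complex. The en and inv starts lay in 1 shared domain of 115 kb in Tdc2 and 120 kb in OK107, in which no other gene started. The odd domain, 95 kb in each line, also held its zinc finger relatives drm and sob.

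Compact domains surrounded hb, Kr and eve. The hb domain was 35 kb in Tdc2 and 40 kb in OK107, the Kr domain was 60 kb in Tdc2 and 80 kb in OK107, where it ran to the last windows of 2R, and the eve domain was 25 kb in both. In the window centred 28.25 kb beyond the eve start, H3K27ac was at 0.81 in Tdc2 and 1.30 in OK107, and H3K27me3 was at -0.71 in Tdc2 and -1.38 in OK107. No window at the start of kni, gt or prd passed the level in Tdc2, where the ratio at the start was 0.93 for kni, 0.56 for gt and 0.79 for prd. In OK107 kni had a 20 kb domain, gt a 25 kb domain and prd none, and the ratio at the start was 1.18 for kni, 1.57 for gt and 0.71 for prd. With a level of 0.5, gt had 15 kb in Tdc2 and 40 kb in OK107, prd 15 kb in each, and kni 110 kb in Tdc2 and 30 kb in OK107, so the order of lines for kni turned with the level.

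**Figure D3:**
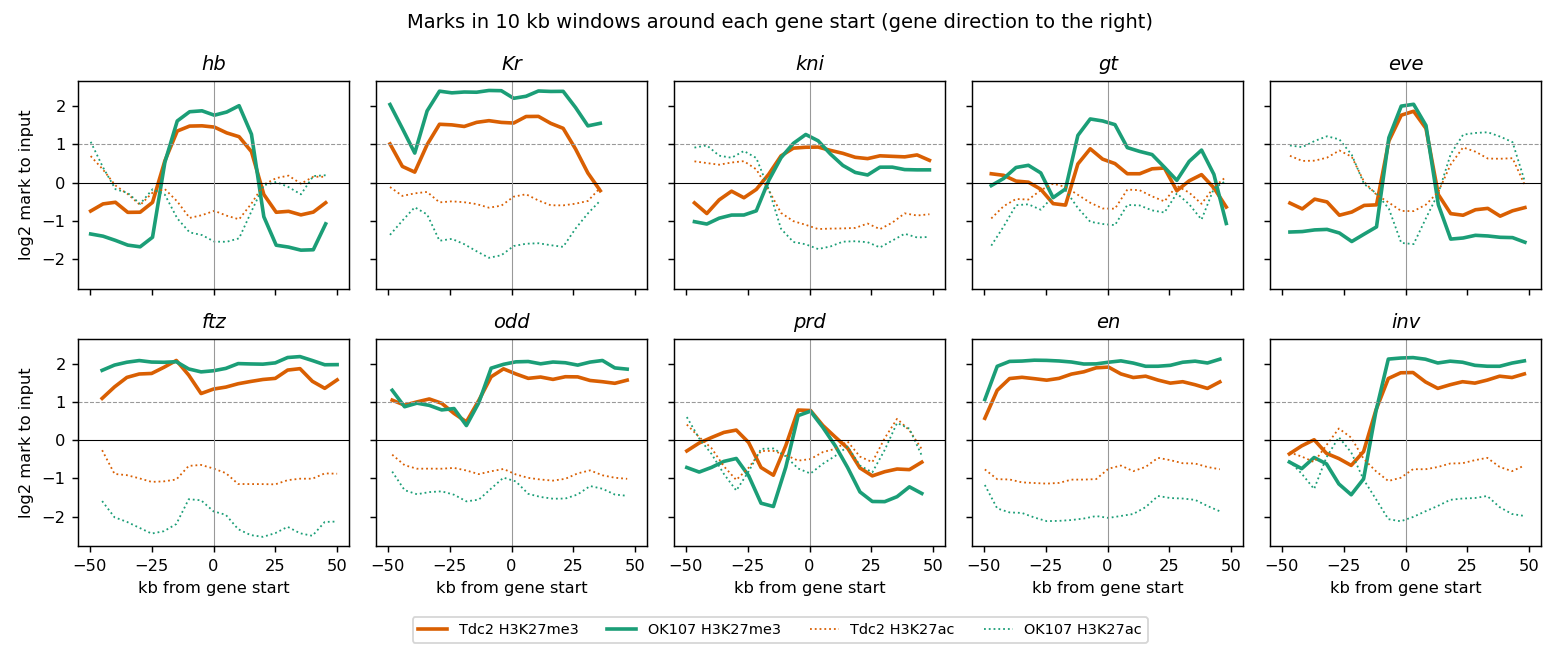
Log2 ratio of mark to input (y axis) in 10 kb windows by distance of the window centre from the gene start (x axis, kb, in the direction of the gene), for H3K27me3 (solid) and H3K27ac (dotted) in Tdc2 and OK107; the dashed line is the domain level of 1. The eve and hb domains have sharp edges, the ftz, odd, en and inv domains reach past the plotted range on at least 1 side, and gt passes the level in OK107 but not in Tdc2.

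The first question between lines was whether the segmentation genes carried the same amount of H3K27me3 in each. In Tdc2 against R57C10, 10 of 10 were lower, with 14.7% of 14585 tested genes called lower (4.95% higher and 19.7% in either direction), and their median log2 fold was -1.31, against 0.04 over all genes. The largest difference was that of gt, with 23.6 and 28.1 CPM (here scaled by TMM, the trimmed mean of M-values) over its body in Tdc2, against 101 and 132 CPM in R57C10. Its log2 fold was -2.17 ± 0.18 (SE; adjusted p = 4.13e-05). The smallest was that of prd, with 81.5 and 82.1 CPM in Tdc2, against 116 and 132 CPM in R57C10, and a log2 fold of -0.60 ± 0.14 (adjusted p = 0.00825 by the edgeR quasi-likelihood test). With total count scaling prd was at -0.24 and did not pass.

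Between these ends, ftz had 60.0 and 72.1 CPM in Tdc2, against 183 and 230 CPM in R57C10, and eve had 48.2 and 47.8 CPM in Tdc2, against 107 and 162 CPM in R57C10. Their log2 folds were -1.64 ± 0.16 and -1.49 ± 0.19. The folds of odd, Kr, hb, inv, en and kni were -1.43, -1.36, -1.26, -1.21, -1.19 and -0.88. For each of the 10 genes both Tdc2 libraries lay below both R57C10 libraries, and all 10 passed when any single library was left out, with gt between -2.40 and -1.97. Among markers of other cells, H3K27me3 was also lower in Tdc2 for 4 of 10 photoreceptor, 2 of 10 glial and 1 of 10 muscle genes, and the part of such cells was not tested.

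None of the 10 genes passed in OK107 against R57C10, where 1.57% of genes were called higher, 0.617% lower and 2.19% in either direction, and 0 of the 10 had an unadjusted p under 0.05 in edgeR or passed in DESeq2. Their log2 folds ran from -0.32 for eve to 0.15 for prd, with a median of -0.16. By ratio to input, OK107 lay below both R57C10 libraries at all 10 genes. With an offset from the inputs the median fold was -0.40, with 5 of 10 at an unadjusted p under 0.05 and 0 called by edgeR. Over all genes the offset fit had 2246 of 14585 at an unadjusted p under 0.05 and called 505, and DESeq2 called 473. Without the early R57C10 library the median was -0.36, with hb at -0.55, odd at -0.51, eve at -0.64 and inv at -0.28. Without the late one the median was 0.05. For eve, OK107 had 108 CPM, against 107 and 162 CPM in R57C10, and for prd OK107 had 138 CPM, against 116 and 132 CPM in R57C10.

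Set against Tdc2, OK107 was higher in 10 of 10 segmentation genes, with 14% of tested genes called higher (1.46% lower and 15.4% in either direction). OK107 and the early Tdc2 H3K27me3 library share a tag. The median log2 fold was 1.15, and gt was again the largest, with 98.8 CPM in OK107, against 23.6 and 28.1 CPM in Tdc2, and a log2 fold of 1.93 ± 0.20 (adjusted p = 8.85e-05, edgeR). The smallest fold was 0.75 ± 0.16 for prd, with 138 CPM in OK107, against 81.5 and 82.1 CPM in Tdc2. The OK107 input was also above the Tdc2 input at all 10 genes, by 0.11 (inv) to 0.62 (eve) on the log2 scale, and by 0.48 at prd, whose ratio to input was 1.07 in OK107, against 1.20 and 1.20 in Tdc2. With an offset from the inputs the median fold was 0.75 and 8 of 10 were called, without eve and prd. With total count scaling it was 0.76 and 9 of 10 were called, without prd. Over all genes, 1716 of 14585 were called higher with the offset and 1271 with total count scaling. These 3 comparisons share libraries and are not independent of each other.

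**Figure D4:**
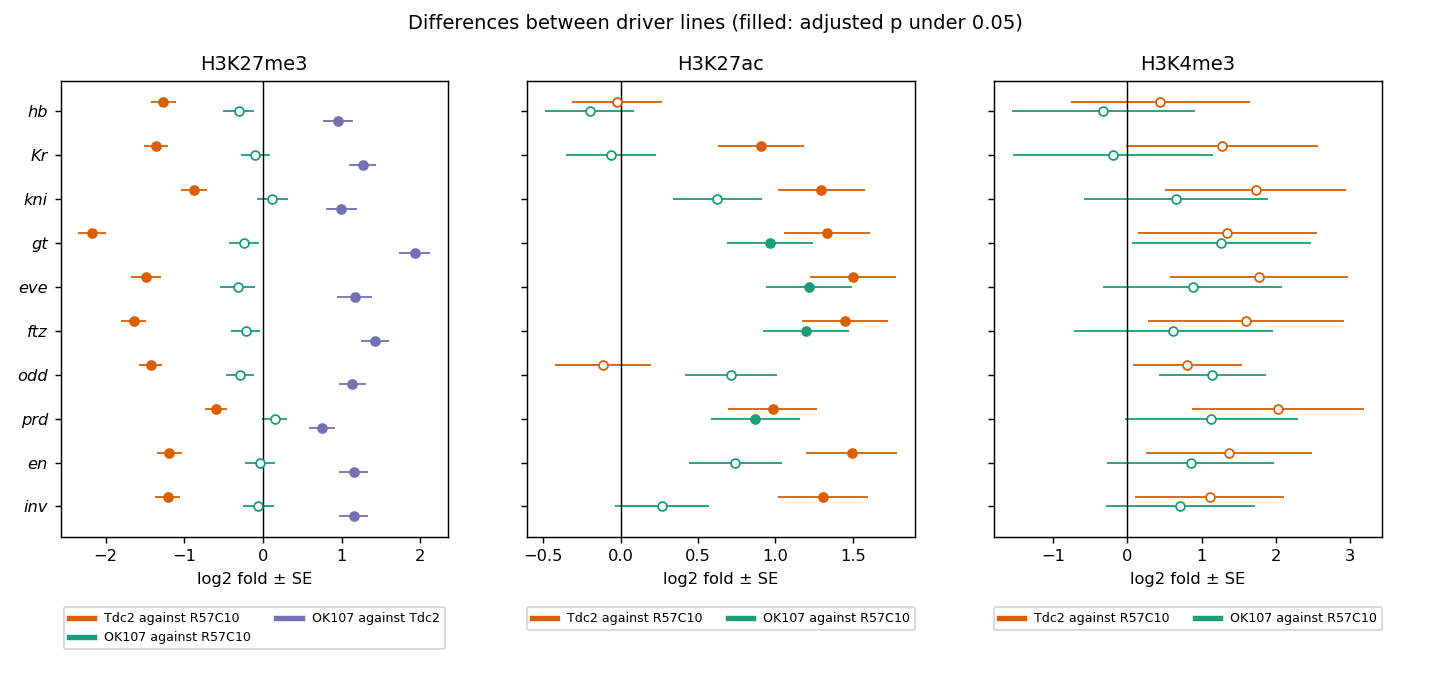
Log2 fold between lines (x axis, with SE) for each segmentation gene; filled points passed a false discovery rate of 0.05. H3K27me3 in Tdc2 against R57C10 runs from -2.17 for gt to -0.60 for prd, OK107 against R57C10 lies around 0, and no H3K4me3 point is filled.

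Folds of Tdc2 against R57C10 ran along enrichment through the whole genome. Genes were placed by their H3K27me3 ratio in OK107, the line outside the comparison, and the median log2 fold of Tdc2 against R57C10 was 0.21 for 6191 genes below -1, -0.96 for 800 genes from 1 to 2, and -1.09 for 368 genes at 2 or above, of which 100% had a negative fold. The 10 segmentation genes all lay in the top 2 of these groups, with 6 and 4 genes. When the trend was removed by a loess fit, the median of the 10 genes was -0.20, in place of -1.31, and in OK107 against Tdc2 it was 0.05, in place of 1.15. Then 2 of 10 were called lower in Tdc2 against R57C10, with 502 of 14585 genes called lower. They were ftz at -0.61 ± 0.16 (adjusted p = 0.0402, edgeR) and gt at -1.20 ± 0.17 (adjusted p = 0.00399, edgeR). In OK107 against Tdc2, 1 of 10, gt at 0.88 ± 0.20, was higher (adjusted p = 0.0269, edgeR), with 459 of 14585 genes called higher. A true change that runs along enrichment would be removed with the trend. The input at gt was 21.9 CPM in Tdc2, 26.99 CPM in OK107 and 20.0 CPM in R57C10.

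**Figure D5:**
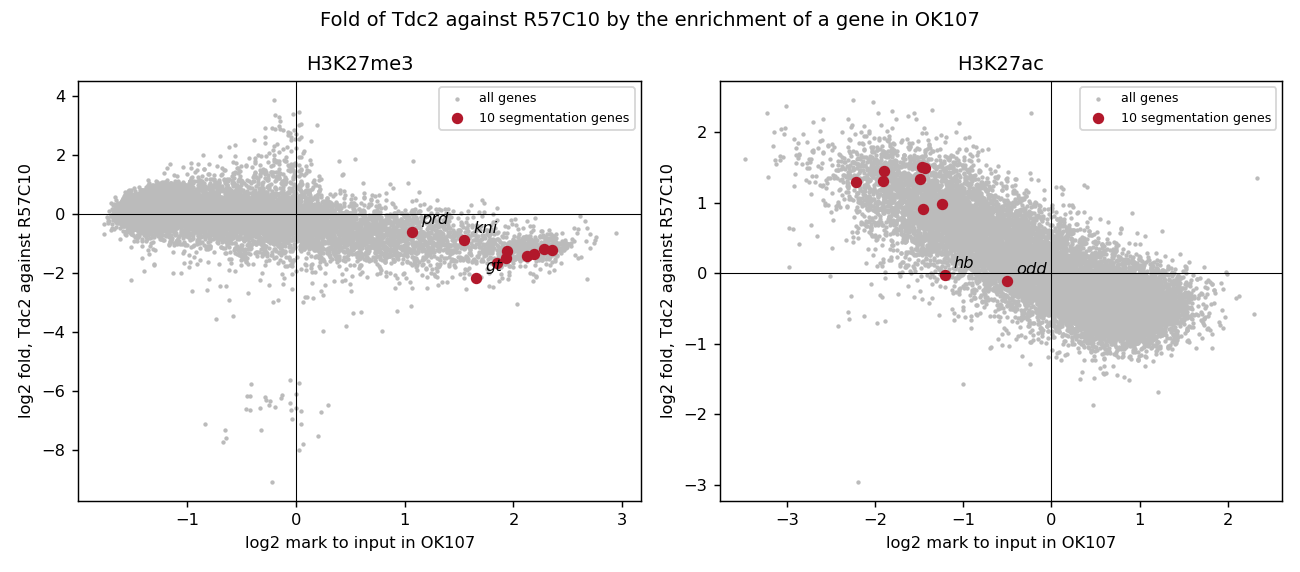
Log2 fold of Tdc2 against R57C10 (y axis) by log2 ratio of mark to input in OK107 (x axis) for all genes (grey) and the 10 segmentation genes (red). In H3K27me3 the folds fall with enrichment and gt lies lowest of the red points at -2.17, and in H3K27ac the red points sit at low ratios, where folds of most genes are positive.

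H3K27ac was low at the promoters of all 10 genes. Against input, 10 of 10 were lower, with 36.1% of 14727 genes called lower (35.2% higher and 71.3% in either direction), and their median log2 fold was -1.47, against 0.03 over all genes. The lowest was inv at -2.61 ± 0.25 (isoform inv-RA) and the highest odd at -0.66 ± 0.18. The ratio of odd was -0.48 in Tdc2, -0.50 in OK107, and -1.34 and -0.64 in R57C10. The ratio of ftz was -0.83 in Tdc2, -1.90 in OK107, and -2.94 and -2.40 in R57C10. For both genes, both R57C10 libraries lay below Tdc2 and OK107.

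Between lines, H3K27ac was less depleted in Tdc2 than in R57C10 at most of these promoters. The exception by ratio to input was hb, at -1.04 in Tdc2 against a mean of -0.68 in R57C10. In Tdc2 against R57C10, 8 of 10 genes were higher, with 20.2% of 14710 genes called higher (7.68% lower and 27.8% in either direction), and the median log2 fold was 1.30. For eve, Tdc2 had 46.2 CPM, against 12.97 and 20.0 CPM in R57C10, a log2 fold of 1.5 ± 0.28 (adjusted p = 3.99e-06, edgeR). For en, Tdc2 had 31.9 CPM, against 10.2 and 12.6 CPM in R57C10, a log2 fold of 1.49 ± 0.29. All the same, each of these promoters stayed under its input in Tdc2, where eve had 73.5 CPM and en 45.2 CPM of input.

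The other genes called were ftz (1.45), gt (1.33), inv (1.31), kni (1.30), prd (0.98) and Kr (0.91). The 2 that did not pass were hb, with 34.4 CPM in Tdc2, against 36.3 and 33.7 CPM in R57C10, and odd, with 56.2 CPM in Tdc2, against 46.9 and 75.2 CPM in R57C10. The 3081 genes with an H3K27ac ratio below -1 in OK107, among them 9 of the 10, had a median fold of 0.96. With that trend removed, 0 of 10 passed in edgeR, and 134 of 14710 genes did. Among markers of other cells, muscle genes were also higher in Tdc2 for 6 of 10, photoreceptor genes for 3 of 10 and glial genes for 2 of 10. All 10 muscle genes stayed below input, between -1.43 and -0.53 in Tdc2 and between -3.17 and -0.99 over the R57C10 libraries. By contrast, 7 of 10 photoreceptor genes stood above input in Tdc2, against 4 in OK107 and 3 in each R57C10 library. For glial genes it was 4 of 10 in Tdc2, against 2 in each other library. The part of such cells in the result was not tested.

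In OK107 against R57C10, 4 of 10 genes were higher in H3K27ac, with 7.42% of genes called higher (3.07% lower and 10.5% in either direction). For eve, OK107 had 38.0 CPM, against 12.97 and 20.0 CPM in R57C10, and the log2 fold was 1.22 ± 0.28. The others were ftz at 1.20, gt at 0.96 and prd at 0.87 (adjusted p = 0.0311, edgeR). DESeq2 called 0 of 10 and 180 of 14710 genes. The model with an offset from the inputs called prd alone of the 10, and 630 genes. The loess fit along enrichment called eve alone of the 10, and 644 genes.

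OK107 and Tdc2, which share a tag for the promoter marks, had 1 library each, so no test was made, and values are CPM by total count with exact Poisson 95% intervals that cover counting error only. H3K27ac was lower in OK107 at 9 of 10 promoters, with a median log2 difference of -0.40, where 57.3% of 14749 genes were lower and the median over all genes was -0.08. At odd it was higher, with 100.2 CPM (94.4 to 106) in OK107, against 59.4 CPM (54.2 to 65.0) in Tdc2. The odd input was higher in OK107 too, by 0.77 on the log2 scale, and the ratio of odd to input was -0.50 in OK107 and -0.48 in Tdc2. In H3K4me3 0 of 10 were higher in OK107 by total count and the median log2 difference was -1.39, where 67.5% of 14751 genes were lower in OK107 and the median over all genes was -0.92. The scaling mattered for odd, which in TMM-scaled CPM was higher in OK107, at 53.9 against 42.6 in Tdc2. In that scaling gt was at 27.2 in OK107 and 28.7 in Tdc2. The intervals were apart for 8 of 10 genes in H3K27ac and 9 of 10 in H3K4me3, and for 58.8% of all genes in H3K27ac and 88.2% in H3K4me3.

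In H3K4me3 the segmentation genes lay nearer the middle of all genes than in H3K27ac, with median percentiles of 40.4 to 48.5 over the libraries, against 7.9 to 19.8 in H3K27ac. That middle was itself below input, with a median ratio over all genes of -0.73 in Tdc2, -1.49 in OK107, and -1.16 and -2.27 in R57C10. Against input, 7 of 10 genes were lower, with 48.2% of 14726 genes called lower (40.4% higher and 88.6% in either direction), and the median log2 fold of the 10 was -1.35, against -0.95 over all genes. The fold was -2.04 ± 0.55 for ftz, -1.97 ± 0.48 for prd and -1.73 ± 0.54 for kni. The values that did not pass were -0.24 for en, -0.31 for inv and -0.93 for hb. Under RLE scaling the median over all genes was -0.14. There 4 of 10 were called lower, with 6530 of 14726 genes called lower, and en and inv were at 0.59 and 0.51 without passing. DESeq2 called both above input at the same folds (adjusted p = 0.00851 for en and 0.032 for inv, DESeq2), as it did 6700 of 14726 genes. Relative to all genes the median of the 10 was -0.36 under RLE scaling and -0.40 in the main scaling.

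By library, the H3K4me3 ratio of en was 0.06 in Tdc2, -1.22 in OK107, and -0.94 and -2.23 in R57C10, and that of inv was -0.04 in Tdc2, -1.24 in OK107, and -0.94 and -2.48 in R57C10. In OK107 these were at percentiles 51.5 and 51.4 of all genes, whereas ftz, the lowest there at -3.31, was at percentile 23.3. The late R57C10 library was below the early one for all 10 genes, by a median of 1.39 in size, where the median size of that difference over all genes was 0.81.

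None of the 10 genes passed in H3K4me3 between lines. Folds of Tdc2 against R57C10 ran along enrichment in this mark too. The 7794 genes with a ratio below -1 in OK107, among them all 10, had a median fold of 1.52. Of that group, 2.98% had a negative fold. With the trend removed by loess, the fold of prd was 0.68. In Tdc2 against R57C10, 0 of 14732 genes were called by edgeR (0%), with 655 at an unadjusted p under 0.05 and 1 gene called by DESeq2. In OK107 against R57C10 a single gene was called (0.00679%), with 68 at an unadjusted p under 0.05 and 5 called by DESeq2. The largest fold among the 10 was that of prd in Tdc2 against R57C10, with 41.3 CPM in Tdc2, against 13.8 and 6.51 CPM in R57C10, a log2 fold of 2.03 ± 1.16 (adjusted p = 0.653, edgeR).

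Promoters of 1 gene differed where isoforms start apart. The inv-RA and inv-RD entries share 1 window and inv-RB and inv-RC another, and the upstream inv-RA window was the poorer in active marks. Its H3K27ac ratio was -1.70 in Tdc2, -2.77 in OK107, and -2.98 and -3.01 in R57C10, and that of inv-RB was -0.56 in Tdc2, -1.91 in OK107, and -2.02 and -1.84 in R57C10. Its H3K4me3 ratio was -1.11 in Tdc2 and -3.07 in OK107, where inv-RB had -0.04 in Tdc2 and -1.24 in OK107.

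The hb promoters changed order between lines. The H3K27ac ratio of hb-RB was -1.04 in Tdc2, -1.21 in OK107, and -0.65 and -0.72 in R57C10. That of hb-RA was -0.68 in Tdc2, -1.60 in OK107, and -1.34 and -1.41 in R57C10. Thus hb-RB was the higher in OK107 and both R57C10 libraries and the lower in the single Tdc2 library. The order was not tested.

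A list of 18 other segmentation genes was read the same way. In H3K27me3 against input, 17 of 18 were higher and 1 lower (30.7% and 32.8% of all genes), with a median log2 fold of 2.32. The largest folds were those of cad (2.91), a maternal and posterior homeobox gene, drm (2.90), the forkhead gene slp2 (2.89), opa (2.85) and slp1 (2.84), followed by sob (2.78). The exception was ci, the transcription factor at the end of the hedgehog pathway, at -0.53 ± 0.15. In Tdc2 against R57C10, 13 of 18 were lower and 1, ci at 0.52, was higher (14.7% and 4.95% of all genes), and the median was -0.95, while the 8 Hox genes had a median of -0.94 and 8 were lower. Lowest of the 18 were hkb (-1.54), drm (-1.26) and sob (-1.22). In OK107 against R57C10, nkd, an antagonist of Wnt signalling, was the 1 gene called (2.19% of all genes), at 1.11 ± 0.17 (adjusted p = 0.00916, edgeR).

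For the active marks, 16 of the 18 were lower than input in H3K27ac (36.1% of all genes) and 12 in H3K4me3 (48.2% of all genes). The gene nkd was higher than input in both, at 1.08 in H3K27ac and 1.42 in H3K4me3. In Tdc2 against R57C10, 9 of 18 were higher in H3K27ac (20.2% of all genes), with the secreted ligands wg at 1.34 and hh at 1.30, and in OK107 against R57C10, 5 were higher (7.42% of all genes), with the pair-rule repressor h at 1.35 and hh at 1.23.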

How the data were processed

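The deposited values were raw counts of read alignments per isoform and per 10 kb window, per the file headers, in coordinates of dm3. Per the submitters' processing notes the authors used CASAVA 1.8, Bowtie 0.12.7 and bedtools 2.15, and the handling of reads with several matches is not given in the sources used here. Another 61 sample columns were not used. Of 25406 entries with a gene, the isoform with the largest sum over a mark's libraries was kept per gene (with the inputs in the sum for fits against input, which kept hb-RA and inv-RA for H3K27ac), and 203 isoforms without a gene (0.463 to 1.16% of counts) and 92 spike-in entries were left out. Each mark was fitted across all genes with edgeR 4.0.16 in R 4.3.3 (quasi-likelihood test, TMM scaling, default expression filter, all lines in 1 model, Benjamini-Hochberg adjustment over all tested genes, false discovery rate 0.05). Residual degrees of freedom were 2 for H3K27me3 and 1 for the other marks, and 4, 3 and 3 against input. Mark levels between lines are TMM-scaled CPM and input levels CPM by total count. Alternatives included DESeq2 1.42.0, other scalings, a loess fit along enrichment, other isoform choices and leaving out each replicate. The fits were tested on simulated data. Members and other segmentation genes were named by size of fold or as exceptions, and not all were named in every comparison. The members and lists were chosen with earlier results of these data known. No sequence is printed.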

Additional observations from a re-analysis of the deposited data

Results flagged for a closer look

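The H3K4me3 ratio to input at the en promoter stood on opposite sides of 0 in different lines. Promoters low in this mark were generally higher in Tdc2 than in R57C10. The 7794 genes with a ratio below -1 in OK107, all 10 segmentation genes among them, had a median log2 fold of 1.52. Removing that trend by loess put the fold of en at 1.06. The en ratio was 0.0617 in the Tdc2 library, against a mean of -1.58 over the R57C10 libraries. In OK107 it was -1.22, against 0.0617 in Tdc2. These differences were not tested as such, since Tdc2 and OK107 have 1 H3K4me3 library each, and the fit of Tdc2 against R57C10 did not call en (log2 fold 1.37 ± 1.12, SE; adjusted p = 0.653, edgeR).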

How the results depend on the processing

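The number of segmentation genes called stayed within 1.5 times of the main number in 95 of 105 recomputed comparisons. These include comparisons, such as H3K4me3 in Tdc2 against R57C10, where 0 were called in the main fit and 0 when recomputed. With the trend along enrichment removed by loess, it was 2 for H3K27me3 in Tdc2 against R57C10, 1 in OK107 against Tdc2, 0 for H3K27ac in Tdc2 against R57C10 and 1 in OK107 against R57C10. In the same order, loess called 913 and 666 of 14585 genes for H3K27me3 and 134 and 644 of 14710 for H3K27ac. Of the members' folds, 13 turned sign under loess and 0 of these passed there. The 6 that had passed in the main setting were kni at 0.067 and prd at 0.17 (H3K27me3, Tdc2 against R57C10), hb at -0.11 and prd at -0.12 (OK107 against Tdc2), and Kr at -0.035 and kni at -0.031 (H3K27ac, Tdc2 against R57C10). For H3K27ac in OK107 against R57C10, DESeq2 called 0, the offset from the input 1 and the fit with all isoform entries 7. Over the whole genome these fits called 180 and 630 of 14710 genes and 4100 of 24871 isoform entries. For H3K4me3 against input, RLE scaling called 4, all lower, with 6530 of 14726 genes called lower. DESeq2 put en at 0.59 and inv at 0.51, both called above input, as were 6700 of 14726 genes. Leaving out 1 replicate gave 4 to 6 calls for H3K4me3 against input. For H3K27me3 in OK107 against R57C10, the median was -0.36 without the early R57C10 library and 0.052 without the late one. The cause of these changes was not tested.

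The number of genes called over the whole genome moved by more than 1.5 times in 35 of 105 cases. For H3K27me3 in Tdc2 against R57C10 it was 2870, with 913 under loess and 5334 with total count scaling, which moved the median fold of all genes to 0.40 and turned the split to 3960 higher and 1374 lower, from 722 and 2148. In OK107 against R57C10 it was 319, with 146 to 1071. In OK107 against Tdc2 it was 2249, with 666 under loess and 3718 with total count scaling. For H3K4me3, 161 were called with total count scaling in Tdc2 against R57C10 and 13 in OK107 against R57C10. For H3K27ac in Tdc2 against R57C10 it was 4096, with 134 under loess and 5323 with the offset from the input. In OK107 against R57C10 it was 1543, with 180 in DESeq2 and 1989 with total count scaling. The fit with all isoform entries counts entries in place of genes. It called 4233 of 24783 for H3K27me3 in OK107 against Tdc2. For H3K27ac it called 7463 of 24871 in Tdc2 against R57C10 and 4100 of 24871 in OK107 against R57C10.

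No paired analysis was possible because the columns carry tags and no replicate numbers, so the fit with a replicate block was not run. Leaving out an R57C10 promoter library left no residual degrees of freedom between lines, so those settings gave values without a test. The newer quasi-likelihood method of edgeR was added after the data were seen. With a domain level of 0.5 in place of 1, 18 of 20 domain lengths changed. The shallow Tdc2 H3K27me3 libraries and the single promoter libraries of Tdc2 and OK107 limit the precision.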

Other observations

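The genes whose pattern over the 3 marks and 3 lines was most like the median of the segmentation genes were tRNA:CR31577, CG11023, the ETS family gene Ets21C, CG7056 and CG17322, among 14517 genes. Likeness was the Euclidean distance over the 9 log2 ratios of mark to input, with replicate libraries averaged, and it was 0.49, 0.60, 0.62, 0.64 and 0.65. Ets21C had H3K27me3 ratios of 1.76 in Tdc2, 2.28 in OK107 and 2.86 in R57C10, and H3K27ac ratios of -0.65 in Tdc2, -1.45 in OK107 and -2.06 in R57C10. Of the segmentation genes themselves, eve and Kr lay closest to the median, at 0.52 and 0.54, and en and prd farthest, at 1.99 and 1.93.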
